A study of Mus musculus with 7 samples.

Results

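Complex I (NADH:ubiquinone oxidoreductase) is the entry point of the mitochondrial respiratory chain, and most of its subunits, with a set of assembly factors, carry gene symbols that begin with Nduf. All array features with such a symbol in the platform annotation were taken, 1 feature per gene, which gave 46 genes of the 19505 with a single symbol. Of these, 8 have a symbol that begins with Ndufaf and were counted as assembly factors, and the other 38 were counted as subunits. The choice goes by symbol alone.

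RNA came from the nucleus pulposus, the soft core of the intervertebral disc, of 3 MCT4KO mice aged 14 months and 4 WT mice aged 13 months, 1 array per animal. MCT4KO mice carry a global deletion of MCT4, the lactate exporter that Slc16a3 encodes, so that every tissue lacks it and not the disc alone. The sample labels name the strain C57BL/6 for both groups, while the series description names C57Bl/6N for the knockouts and C57Bl/6 for WT. Both groups are described as offspring of MCT4+/− parents after 10 generations of backcrossing to C57Bl/6N. Lumbar and caudal discs of 1 animal were pooled into 1 sample. Age and genotype cannot be told apart, and no source used here gives the animals' sex.

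Complex I is L-shaped. Its matrix arm takes electrons from NADH at a flavin and passes them along iron-sulfur clusters to ubiquinone, and its membrane arm pumps protons. Core subunits of the matrix arm carry the flavin and the clusters, core subunits of the membrane arm are encoded in mitochondrial DNA, and a larger number of accessory subunits surround both arms. Assembly factors build the modules and leave the finished enzyme. The nucleus pulposus has no blood vessels and is known as a hypoxic tissue that lives largely on glycolysis, so lactate leaves its cells in large amounts. The question here was whether transcripts of the enzyme that reoxidises mitochondrial NADH differ when lactate export through MCT4 is lost.

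Slc16a3 read 5.02, 4.98 and 4.47 in MCT4KO 1 to 3, against 13.55, 13.35, 13.61 and 13.40 in WT 1 to 4 (log2 values, limma adjusted p = 6.7e-09, exact two-sided permutation p = 0.0286, the smallest that 35 splits allow). Signal in MCT4KO was at least 179.9-fold lower, with MCT4KO values set at the control median. The 5222 negative control features had array medians of 5.91 to 6.08, and array medians over genes were 6.46 to 6.51. Of 11 measured nucleus pulposus markers, 10 read above the control median in every array, and the exception was Car12. In estimate 9 of the 11 were higher in MCT4KO, with 0 at a limma adjusted p under 0.05 (smallest 0.088). Their mean log2 value was 14.524 to 14.707 in MCT4KO animals and 14.256 to 14.515 in WT animals. All values below are on the deposited log2 scale, where 1 unit is a doubling of signal. Some deposited values exceed 16, above the ceiling of a 16-bit scanner on this scale, so values were rescaled before deposit and a fold refers to the rescaled signal. Features differ in how strongly they bind, so levels are not ranked between genes.

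No Nduf gene differed between MCT4KO and WT mice past the threshold. By limma with Benjamini-Hochberg adjustment over all genes, 0 of 46 were called at an adjusted p under 0.05, with 0 higher and 0 lower, where 0.59% of all genes were called (115 of 19505, 23 higher and 92 lower). After quantile normalization 79 genes were called in all, 53 of them lower, and again no Nduf gene. The smallest adjusted p among the 46 was 0.22, for Ndufa3. At an unadjusted p under 0.05 there were 2 Nduf genes, both lower in MCT4KO, and the share of all genes with such a p was 12.7% (6.9% lower and 5.76% higher). Point estimates ran from -0.64 to 0.38, with 19 genes above 0 and 27 below. In bulk tissue, fewer cells of a type and less RNA per cell cannot be told apart.

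The intervals bound the size of these differences. Over the 46 genes the standard error of the log2 change had a median of 0.169, against 0.167 over all genes. The 95% limma interval lay between -1 and 1, less than a doubling or a halving, for 45 of the 46 genes, against 91.2% of all genes. It lay between -0.5 and 0.5 for 21 of 46, against 38.7% of all genes. The gene whose interval went past -1 was Ndufa3, with bounds of -1.08 and -0.21. In 37 of 46 genes the change was under 0.25 in size, against 67.6% of all genes. When each animal was left out in turn, the estimate crossed 0 in 20 of 46 genes and moved by over 1.5 times with the same sign in 21. The other 5 were Ndufa3, Ndufa9, Ndufb3, Ndufs6 and Ndufaf7, all with estimates below 0 (chosen after their values were seen).

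**Figure D1:**
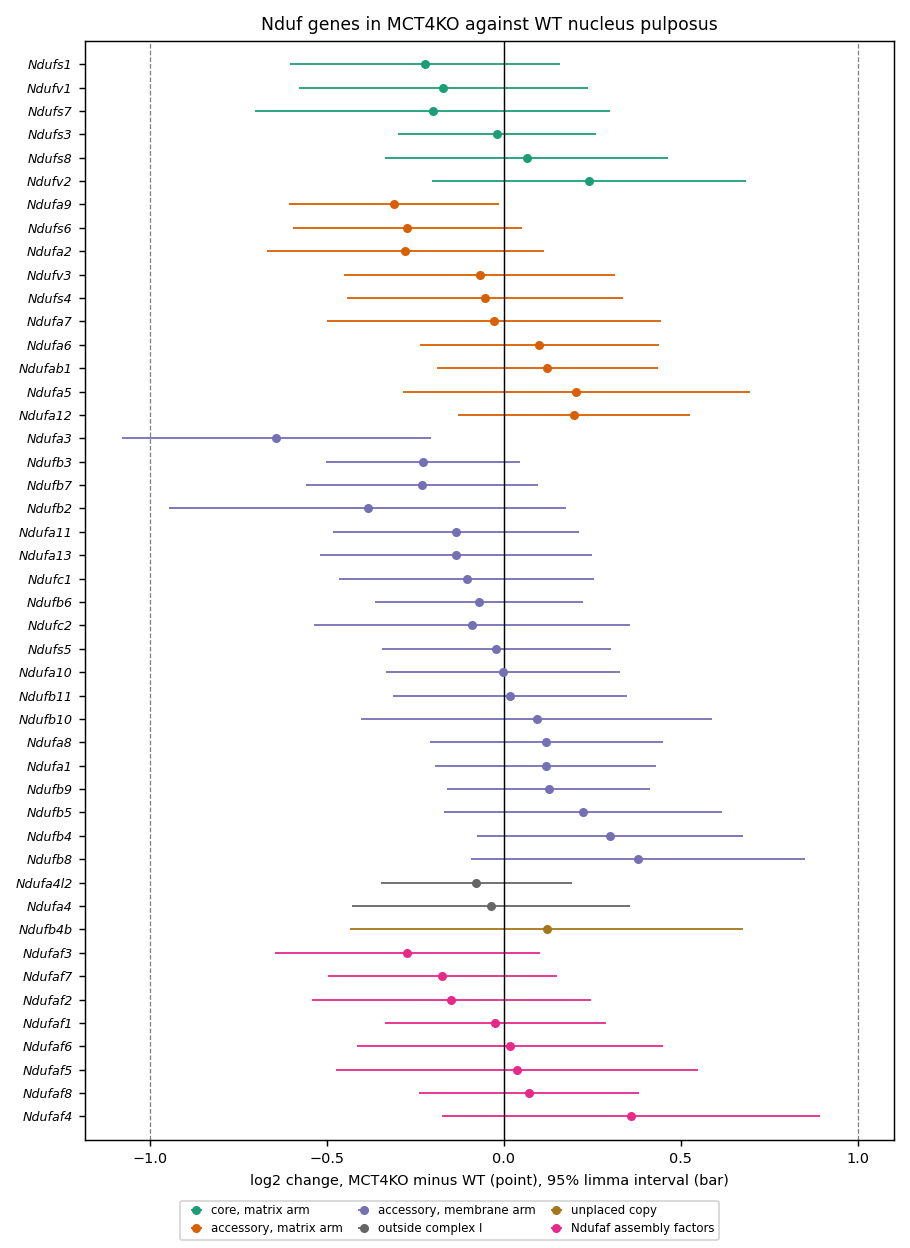
Log2 change of each Nduf gene, MCT4KO minus WT (x axis), with points for the estimate, bars for the 95% limma interval, colours for the role in complex I, and dashed lines at -1 and 1. Bars of 44 of the 46 genes cross 0, the other 2 being Ndufa3 and Ndufa9, and every bar except that of Ndufa3 stays between the dashed lines.

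Sequences around the gene starts were read to see what the Nduf genes share that the array does not measure. RefSeq windows of 250 bases before and 50 after the start (GRCm38.p6) were held for 41 of the 46 genes, in 43 windows, and 32851 windows of all genes served for comparison. Letters were searched on both strands, with no mismatch, and the motifs were chosen after the values were known. The NRF1 letters (GCGCA, any base, GCGC) stood in 10 of 43 Nduf windows (23.3%) and 4.6% of all windows. NRF1 is the transcription factor best known for nuclear genes of the respiratory chain. The letters AAGATGGC, the core of a YY1 motif, stood in 8 of 43 (18.6%) and 2.75% of all windows. The ETS letters CCGGAAG stood in 6 of 43 (14%) and 8.86% of all, and the hypoxia response core ACGTG in 8 of 43 (18.6%) and 19.6% of all. In 0 of the 43 windows did matches of different motifs overlap. A match is a description of letters and not a bound site.

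The YY1 letters are shown because their genes include Ndufa3, Ndufa9 and Ndufs6, all low in estimate in MCT4KO, and Ndufb8, with the highest estimate of the 46. Capitals mark the letters in 30 bases read 5′ to 3′ on the gene's strand.
Ndufa3 (chr7:3617384-3617413, +): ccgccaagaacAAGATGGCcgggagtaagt
Ndufa9 (chr6:126849097-126849126, -): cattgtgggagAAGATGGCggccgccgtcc
Ndufs6 (chr13:73328433-73328462, -): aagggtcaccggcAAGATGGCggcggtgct
Ndufs7 (chr10:80249462-80249491, +): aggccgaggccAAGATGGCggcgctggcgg
Ndufs4 (chr13:114388045-114388074, -): gcgtttgcctacaggAAGATGGCggcggtc
Ndufc1 (chr3:51408915-51408944, -): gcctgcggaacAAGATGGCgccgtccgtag
Ndufaf8 (chr11:120098933-120098962, +): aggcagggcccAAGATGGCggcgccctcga
Ndufb8 (chr19:44555393-44555422, -): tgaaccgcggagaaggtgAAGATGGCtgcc
In all 8 genes the letters lie past the annotated start, by 10 to 38 bases, and hold an ATG on the gene's strand.

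The changes of these 8 genes ran from -0.64 to 0.38, with 6 below 0 and a median of -0.15. Over all 46 Nduf genes 27 were below 0, with a median of -0.03. For the 9 genes with NRF1 letters they ran from -0.27 to 0.36, with 3 below 0 and a median of 0.10. The 7 genes with the hypoxia core had 5 below 0 and a median of -0.07, and the 6 with ETS letters had 4 below 0 and a median of -0.02. Since 0 of any set passed the test, these are values of estimates only. The sets share genes, such as Ndufa3 (YY1 letters and hypoxia core) and Ndufaf8 (YY1 and ETS letters), so their medians are not separate values. Ndufs6 carries both the YY1 and the NRF1 letters. Its NRF1 letters stand in capitals in the 250 bases before its start, 16 bases upstream of it.
Ndufs6 (chr13:73328483-73328732, -): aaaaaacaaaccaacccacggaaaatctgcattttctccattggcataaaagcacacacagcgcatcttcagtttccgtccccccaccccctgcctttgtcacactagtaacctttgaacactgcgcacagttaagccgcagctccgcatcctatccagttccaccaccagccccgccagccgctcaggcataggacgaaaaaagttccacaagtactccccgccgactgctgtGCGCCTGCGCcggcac
By the same RefSeq table the 46 genes lie on 17 chromosomes, with Ndufa1 and Ndufb11 on X and 6 genes on chromosome 17.

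Among the 6 core subunits of the matrix arm analysed, 0 were called (smallest adjusted p = 0.61), with 2 point estimates above 0, 4 below and a median of -0.09. Ndufv1 encodes the flavin-bearing subunit where NADH is oxidised. Its log2 value was 11.83, 12.05 and 11.91 in MCT4KO 1 to 3, against 12.50, 12.02, 12.16 and 11.73 in WT 1 to 4. The MCT4KO animals lay inside the WT range, and the change was -0.17 ± 0.182 (SE; interval -0.58 to 0.24; limma adjusted p = 0.73). WT 1 was the high animal, and the change of Ndufv1 was -0.037 without it and -0.29 without WT 4. Ndufv2, its iron-sulfur partner, read 12.17, 12.14 and 12.66 in MCT4KO and 12.19, 11.82, 12.45 and 11.87 in WT. The highest of the 7 values was that of MCT4KO 3, and the change was 0.24 ± 0.198 (limma adjusted p = 0.64), and 0.072 without MCT4KO 3. Ndufs1, the large subunit that carries several iron-sulfur clusters, read 9.25, 9.81 and 9.34 in MCT4KO and 9.87, 9.64, 9.78 and 9.48 in WT. Both MCT4KO 1 and MCT4KO 3 were below every WT animal while MCT4KO 2 was not, and the change was -0.22 ± 0.171 (limma adjusted p = 0.61).

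The other core subunits described here sit nearer the quinone site. Ndufs3, which has no cofactor of its own, read 13.15, 13.26 and 13.28 in MCT4KO and 13.37, 13.26, 13.23 and 13.13 in WT. Its groups overlapped almost fully, and the change was -0.02 ± 0.125 (interval -0.30 to 0.26). Ndufs7 encodes the subunit with the last cluster before ubiquinone. It read 8.69, 9.49 and 9.61 in MCT4KO and 9.39, 9.39, 9.75 and 9.33 in WT, so that MCT4KO 1 stood alone below the other animals. The change of Ndufs7 was -0.20 ± 0.224, and 0.09 without MCT4KO 1. Ndufs8, a ferredoxin-like subunit, read 10.59, 11.25 and 10.77 in MCT4KO and 10.97, 10.59, 10.87 and 10.80 in WT, a change of 0.07 ± 0.179. Here MCT4KO 2 was the highest animal and the groups overlapped. The mitochondrially encoded subunits of the membrane arm were not analysed here.

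Accessory subunits of the matrix arm numbered 10, with 4 above 0 and 6 below, a median of -0.04 and 0 called. Ndufa9, which sits where the arms join, read 10.39, 10.39 and 10.56 in MCT4KO 1 to 3, against 10.91, 10.73, 10.79 and 10.60 in WT 1 to 4. Every MCT4KO value was below every WT value. The means were 10.45 ± 0.100 in MCT4KO and 10.76 ± 0.132 in WT (SD, n = 3 and 4), a change of -0.31 ± 0.132 (SE; interval -0.61 to -0.01; limma adjusted p = 0.38). Ndufs6, a zinc-binding subunit added late to the NADH-oxidising module, read 11.02, 11.31 and 11.14 in MCT4KO and 11.48, 11.54, 11.53 and 11.18 in WT. All MCT4KO animals were below WT 1 to 3 but not all were below WT 4. The change of Ndufs6 was -0.27 ± 0.145 (interval -0.60 to 0.05; limma adjusted p = 0.47), and -0.36 without WT 4.

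Ndufa12, a subunit related in sequence to the assembly factor Ndufaf2, was the accessory subunit of this arm with the highest moderated statistic. It read 13.54, 13.63 and 13.66 in MCT4KO and 13.62, 13.38, 13.51 and 13.14 in WT. Only WT 1 of the WT animals reached the MCT4KO values, and the change was 0.20 ± 0.146 (limma adjusted p = 0.60). The other 7 had adjusted p of 0.53 to 0.97. They included Ndufs4, needed for a stable NADH-oxidising module (-0.05 ± 0.174), and Ndufab1, the mitochondrial acyl carrier protein (0.12 ± 0.140). Ndufa2 had a change of -0.28 ± 0.175 and Ndufa5 one of 0.20 ± 0.219, with Ndufv3, Ndufa6 and Ndufa7 between -0.07 and 0.10.

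Accessory subunits of the membrane arm were the largest set, with 19 measured, 8 above 0, 11 below, a median of -0.02 and 0 called. Ndufa3, a small subunit of the arm's part next to the matrix arm, read 12.01, 12.60 and 11.99 in MCT4KO 1 to 3, against 12.98, 13.10, 12.71 and 12.58 in WT 1 to 4. MCT4KO 2 read just above WT 4, so the groups overlapped by that single animal. The means were 12.20 ± 0.344 in MCT4KO and 12.84 ± 0.240 in WT (SD, n = 3 and 4), a change of -0.64 ± 0.195 (SE; limma adjusted p = 0.22). Ndufa3 was the only one of the 46 genes with a change over 0.5 in size, and the value was between -0.84 and -0.54 when any 1 animal was left out.

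Ndufb3, a short subunit of the distal part of the membrane arm, read 8.85, 8.68 and 8.74 in MCT4KO and 9.07, 8.90, 8.99 and 8.98 in WT. No MCT4KO value reached a WT value, and the change was -0.23 ± 0.122 (interval -0.50 to 0.04; limma adjusted p = 0.47). Ndufb4 read 13.93, 14.25 and 14.02 in MCT4KO and 13.93, 13.90, 13.85 and 13.39 in WT, a change of 0.30 ± 0.168 (limma adjusted p = 0.48). Its groups were apart by less than the second decimal, between MCT4KO 1 and WT 1, and WT 4 was the low animal. Ndufb8, a late addition to the distal part of the arm, read 8.32, 8.18 and 8.02 in MCT4KO and 8.14, 8.05, 7.27 and 7.71 in WT. The SD was 0.154 in MCT4KO and 0.396 in WT, and the change was 0.38 ± 0.211 (limma adjusted p = 0.48). The Ndufb8 change was 0.21 without WT 3 and 0.68 without WT 1 and WT 2.

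The other 15 membrane arm subunits had adjusted p of 0.54 to 0.995. Ndufb2 had the widest interval among them, -0.95 to 0.18 around a change of -0.38, with values of 7.67, 8.77 and 8.41 in MCT4KO and 8.84, 8.28, 8.77 and 8.78 in WT. MCT4KO 1 was the lowest of the 7 animals there. Ndufb7 followed with -0.23 ± 0.147 and Ndufb5 with 0.22 ± 0.175. Ndufa13, also known as the cell death regulator GRIM-19, had a change of -0.14 ± 0.172. The remaining 11 (Ndufa1, Ndufa8, Ndufa10, Ndufa11, Ndufb6, Ndufb9, Ndufb10, Ndufb11, Ndufc1, Ndufc2 and Ndufs5) lay between -0.13 and 0.13.

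**Figure D2:**
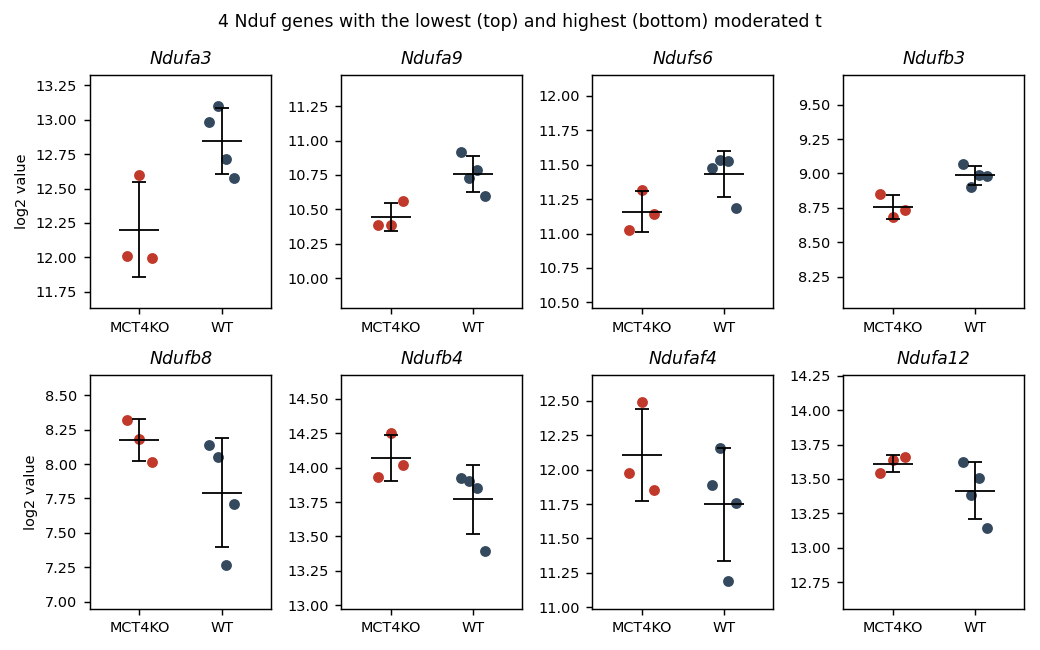
Log2 values of the 4 Nduf genes with the lowest moderated t (top row) and the 4 with the highest (bottom row), with MCT4KO animals left, WT animals right, a point for each animal and black bars for the mean ± SD. Each panel spans the same range of log2 units. Points of the groups are fully apart for Ndufa9 and Ndufb3 and barely so for Ndufb4, and none of the 8 genes passed the test.

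Across the 46 genes, groups did not overlap in 3: Ndufa9 and Ndufb3, lower in MCT4KO, and Ndufb4, higher. Over all genes 6.37% were lower and 5.66% higher without overlap, 12% together, which is more than the share that 3 of 46 makes.

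Of the 8 Ndufaf assembly factors, 4 had estimates above 0 and 4 below, with a median of -0.003 and 0 called (smallest adjusted p = 0.52). Ndufaf3 and Ndufaf4 work as partners on the quinone-binding module. Ndufaf3 read 9.15, 9.19 and 9.45 in MCT4KO 1 to 3, against 9.91, 9.49, 9.40 and 9.36 in WT 1 to 4, and its change was -0.27 ± 0.167 (limma adjusted p = 0.52). Ndufaf4 read 11.98, 12.49 and 11.85 in MCT4KO and 11.89, 12.16, 11.19 and 11.75 in WT, and its change was 0.36 ± 0.239 (limma adjusted p = 0.56). The partners thus had point estimates of opposite sign, each with overlapping groups and an interval that held 0. Without 1 animal Ndufaf3 was as near 0 as -0.15 (without WT 1) and Ndufaf4 as 0.17 (without MCT4KO 2 or WT 3). The difference between the partners was not tested.

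Ndufaf5 and Ndufaf8 act together in the hydroxylation of Ndufs7, as known from human cells. Ndufaf5 read 6.12, 7.11 and 6.73 in MCT4KO and 6.84, 6.65, 6.32 and 6.65 in WT, where MCT4KO 1 and MCT4KO 2 were the lowest and the highest of all animals. Its change was 0.04 ± 0.228. Ndufaf8 read 7.84, 7.88 and 7.86 in MCT4KO and 7.90, 7.88, 7.51 and 7.86 in WT, a change of 0.07 ± 0.139 in which WT 3 was the one low animal. Ndufaf7, a methyltransferase needed for complex I assembly, read 8.87, 9.12 and 8.93 in MCT4KO and 9.14, 9.30, 9.24 and 8.90 in WT. MCT4KO 1 was the lowest animal by a small margin below WT 4, and the change was -0.17 ± 0.145 (limma adjusted p = 0.64).

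Ndufaf1, part of the complex that builds the membrane arm, read 8.20, 8.25 and 8.37 in MCT4KO and 8.54, 8.23, 8.26 and 8.16 in WT, a change of -0.02 ± 0.139 with groups that overlapped. Ndufaf2, which holds the place that Ndufa12 later takes, read 7.11, 7.27 and 7.28 in MCT4KO and 7.36, 7.05, 7.78 and 7.29 in WT, a change of -0.15 ± 0.176. The high value of WT 3 set that difference, which was -0.01 without WT 3. Ndufaf6 read 5.65, 6.28 and 5.63 in MCT4KO and 5.73, 5.81, 5.66 and 6.14 in WT. In 5 of 7 arrays it was at or below the control median, so its values lie close to background.

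Another 3 genes carry the prefix without a settled place in complex I. Ndufa4 was named as a complex I subunit and is now assigned to complex IV. It read 11.51, 11.50 and 11.50 in MCT4KO and 11.60, 11.64, 11.83 and 11.10 in WT, a change of -0.04 ± 0.176 (interval -0.43 to 0.36). The MCT4KO animals were nearly identical and sat within the WT range. Ndufa4l2, its paralogue, is a HIF-1 target that is known to lower complex I activity in hypoxic cells. It read 17.09, 17.22 and 17.11 in MCT4KO and 17.21, 17.28, 17.24 and 17.14 in WT, with the smallest spread of the 46 genes (pooled SD 0.0658, against a median of 0.226). Its change was -0.08 ± 0.120 (interval -0.35 to 0.19; limma adjusted p = 0.82), with all its values above 16 on the rescaled signal. Ndufb4b, a copy of Ndufb4 whose signal may not be separable from that of the parent gene, read 12.53, 13.39 and 13.63 in MCT4KO and 13.18, 13.06, 13.23 and 12.77 in WT. MCT4KO 1 was its lowest and MCT4KO 3 its highest animal, and the change was 0.12 ± 0.248.

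Animals of one genotype differed from each other across many Nduf genes at once. MCT4KO 1 was the lowest of the 3 MCT4KO animals in 31 of 46 Nduf genes (67.4%), against 36.3% of all genes. WT 4 was the lowest of the 4 WT animals in 26 of 46 (56.5%), against 26.3% of all genes, and WT 1 was the lowest in 2 of 46. Averaged over the 38 subunits, the log2 value was 10.85, 11.10 and 11.07 in MCT4KO 1 to 3, against 11.13, 11.04, 11.11 and 10.89 in WT 1 to 4. The means of these were 11.01 ± 0.135 in MCT4KO and 11.04 ± 0.112 in WT (SD, n = 3 and 4), a difference smaller than either SD. Over the 8 assembly factors they were 8.12, 8.45 and 8.26 in MCT4KO and 8.41, 8.32, 8.17 and 8.26 in WT. Genes of one set share their libraries and are not replicates, so no test was made of these averages.

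**Figure D3:**
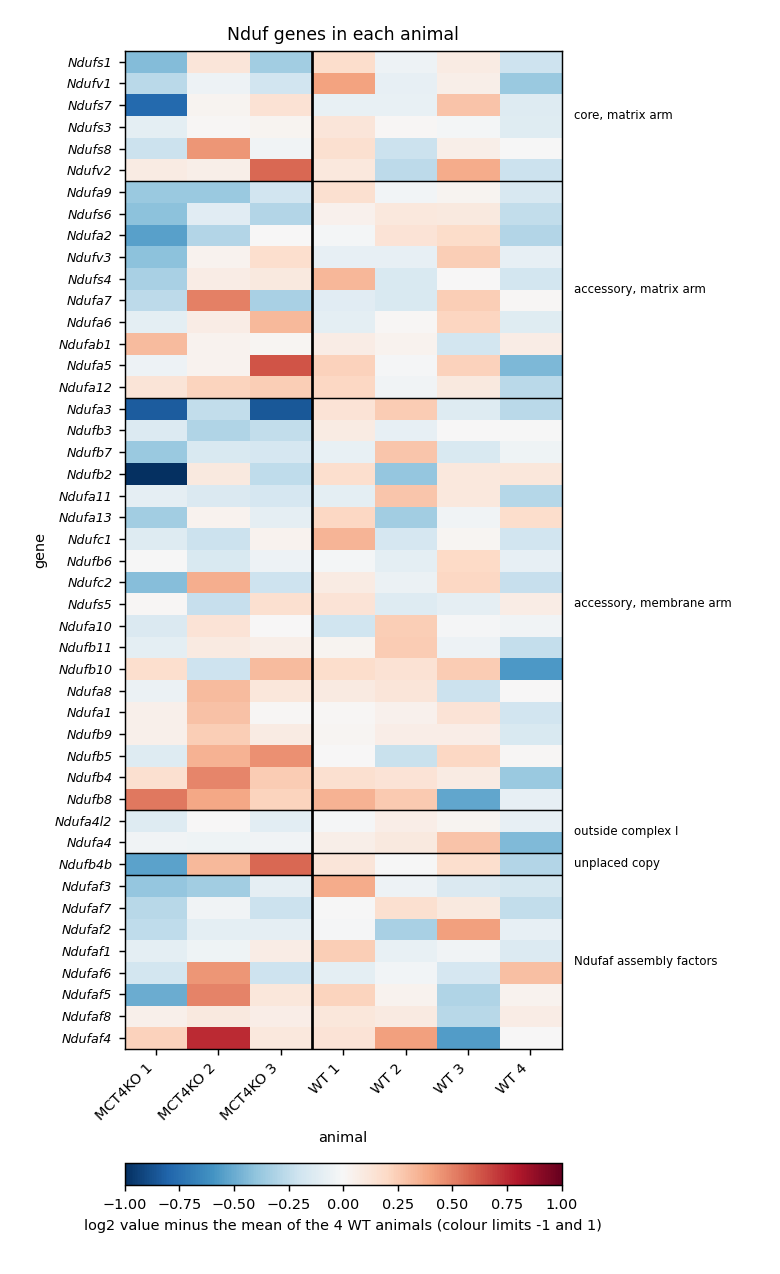
Log2 value of each Nduf gene (rows, grouped by role) in each animal (columns, MCT4KO left of the line, WT right) minus the mean of the 4 WT animals, with blue for lower, red for higher and colours limited at -1 and 1. MCT4KO 1 and WT 4 hold the most blue cells, being lowest of their genotype in 31 and 26 of 46 genes.

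The median log2 change of the 38 subunits was -0.03, with 23 below 0, beside 0.02 over all genes, where 47% lay below 0. The 38 include Ndufa4, Ndufa4l2 and Ndufb4b. For the 35 subunits placed in an arm of complex I the median was -0.03, with 21 below 0. Among genes above the median level only, which include all 38 subunits, the median over genes was -0.06. That set holds every level above the median, so it is not matched to the subunits in level. The medians were not tested against each other. The sign of the subunit median was not stable. The median was 0.05 after quantile normalization and 0.06 without MCT4KO 1, when 16 of 38 were below 0, and it was 0.004 without WT 1 and WT 2. Of the neutrophil and marrow markers 10 of 10 were lower in MCT4KO in estimate, with list means of 5.24 to 5.89 in MCT4KO and 6.11 to 10.27 in WT. In every MCT4KO animal 6 of the 10 were at or below the control median. With WT 1 and WT 2, the highest animals for these markers, left out, 0 of 46 Nduf genes were called, as with all animals. That smaller fit called 16 genes in all, against 115 with all animals, so its count cannot show whether these markers matter for the Nduf values. Skeletal muscle, a tissue rich in mitochondria, had marker means of 5.69 to 6.20 in MCT4KO and 5.61 to 6.24 in WT, with 4 of 12 markers at or below the control median in all arrays and 8 of 12 higher in estimate. Adipocyte markers had list means of 4.68 to 5.14 in MCT4KO and 4.54 to 4.88 in WT, with 8 of 8 higher in estimate and 5 of 8 at or below the control median in all arrays. MCT4KO 1 had the highest muscle and adipocyte means of its genotype. The part of marrow cells, muscle, fat and nucleus pulposus cell content in the Nduf values was not tested.

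Other genes of the pathway gave a like picture. Complex I assembly factors without the prefix numbered 13, of which 0 were called, 6 were above 0 and the median was -0.01. Nubpl, which delivers iron-sulfur clusters to complex I, read 7.48, 7.93 and 7.99 in MCT4KO and 8.34, 8.21, 8.22 and 8.20 in WT. All MCT4KO animals were below all WT animals, and the change was -0.44 ± 0.153 (limma adjusted p = 0.28). Aifm1, which supports import of complex I subunits, had -0.21 ± 0.127 (limma adjusted p = 0.52). In the general iron-sulfur assembly list 0 of 11 were called, 7 were above 0, and Hspa9, the mitochondrial chaperone of that pathway, had 0.35 ± 0.142 (limma adjusted p = 0.35).

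In a list of mitochondrial NADH shuttle and other redox genes, 0 of 15 were called, 6 were above 0 and the median was -0.03. Slc25a12, an aspartate-glutamate carrier of the malate-aspartate shuttle, read 11.28, 11.31 and 11.43 in MCT4KO and 10.59, 10.76, 11.01 and 10.97 in WT. The groups were fully apart, and the change was 0.51 ± 0.145 (interval 0.18 to 0.83; limma adjusted p = 0.19). Gpd2, the glycerol-phosphate dehydrogenase that passes electrons to ubiquinone without complex I, had -0.44 ± 0.205 (limma adjusted p = 0.42), with MCT4KO 1 the lowest animal at 7.56, and -0.20 without that animal. Genes of mitochondrial mass and biogenesis had a median of 0.004 over 13 members, 0 of them called and 3 at or below the control median in all arrays.

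The other respiratory complexes were set beside complex I. Complexes III and IV and ATP synthase together had 38 measured nuclear genes, 14 above 0 and 24 below, a median of -0.06 and 0 called. ATP synthase subunits had a median of -0.06 (3 of 16 above 0), complex III -0.06 (4 of 9), complex IV 0.01 (7 of 13) and complex II -0.06 (3 of 8). MCT4KO 1 was the lowest of the MCT4KO animals in 67.4% of the Nduf genes and in 29 of those 38 (76.3%). WT 4 was the lowest WT animal in 56.5% of the Nduf genes and in 13 of those 38 (34.2%). These shares were not tested against each other.

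**Figure D4:**
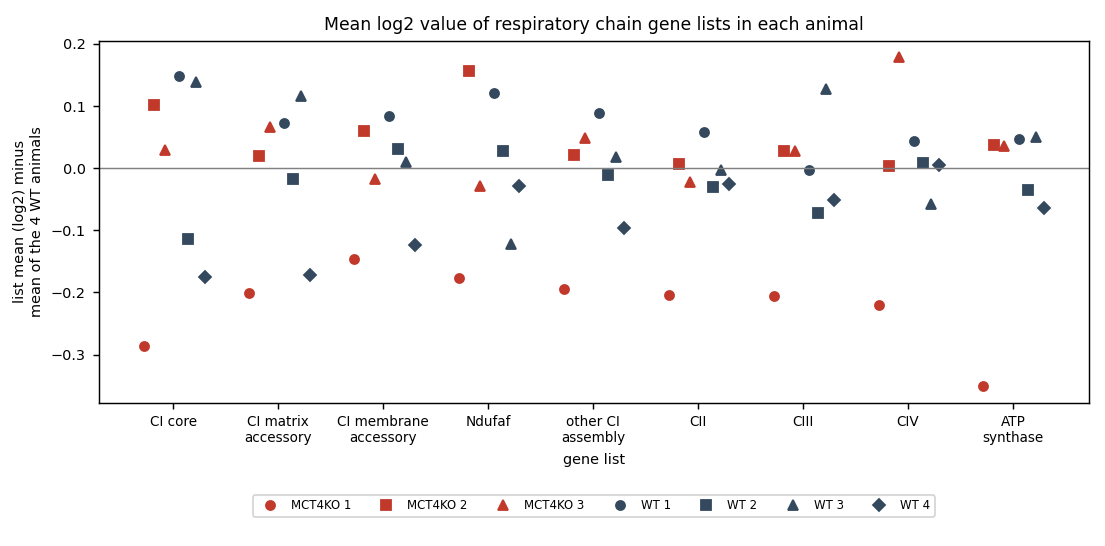
Mean log2 value of each respiratory chain gene list in each animal minus the mean of the 4 WT animals (y axis), for complex I (CI) by role and complexes II to IV and ATP synthase (x axis), with MCT4KO in red left of WT in dark blue and a marker for each animal. MCT4KO 1 is the lowest of the 7 animals in all 9 lists, while MCT4KO 2 and MCT4KO 3 lie among the WT animals or near them.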

How the data were processed

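Expression in nucleus pulposus of 3 MCT4KO and 4 WT mice was read from 1 table of log2 values that the authors deposited, 1 array per animal. Per the submitters' processing notes, Expression Console 1.4.1 was used. How background, normalization and probe summary were handled was not given in any source used here, and the log2 scale is read from the values. Precision is limited by the 7 arrays.

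Features with 1 symbol (19572) were named by gene identifier through RefSeq (GRCm38.p6), and the feature with the highest mean was kept where a gene had several. Each of the 46 Nduf genes had 1 feature. No filter on low values was applied, so all 46 were tested. A model of genotype alone was fitted to all 19505 genes by lmFit and eBayes (limma 3.58.1 under R 4.3.3), with Benjamini-Hochberg adjustment of its two-sided p over all genes. The fit was also run on simulated data with planted changes. Their recovery is not given here, so the power for changes of the size seen is not stated. Lists are described by counts and medians, without a test. Values in every animal are given for Ndufs6, the core subunits, Ndufaf genes, Ndufa4, Ndufa4l2, the 4 highest and 4 lowest by moderated t and the genes with the highest and lowest mean, and also for Ndufb2 and Ndufb4b, which were chosen after their values were seen. In other lists up to 2 genes with the smallest p are named. Members, lists and this rule were chosen with earlier results of these data known.

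Alternatives were quantile normalization, median subtraction, genes above the median level, averaged features, low values raised to the control median, a trended robust prior, animal number as a block, and fits without animals. Nnt was not analysed here.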

Additional observations from a re-analysis of the deposited data

Results flagged for a closer look

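In 7 of the 46 Nduf genes 1 WT animal stood apart from the other 3, its gap to the nearest of them taking up most of the WT range (Dixon's test at the 95% level). Chance flags about 1 in 20 groups, all genes share the same 4 WT animals, and by the same check 7.69% of all genes (1500 of 19505) had such an animal. WT 4 was the low animal for Ndufb10 (6.83), Ndufb4 (13.39) and Ndufs6 (11.18). WT 3 was low for Ndufaf8 (7.51) and high for Ndufs7 (9.75) and Ndufv3 (7.40). WT 2 was low for Ndufb2 (8.28). Groups of 3, as in MCT4KO, are too small for this check.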

How the results depend on the processing

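Under each of 14 alternatives with a test, 0 Nduf genes were called (of 46, or of 45 where genes were limited to those above the median level, which leaves out Ndufaf6), with 1 to 3 at an unadjusted p under 0.05 and a smallest adjusted p of 0.11 to 0.46. The animal numbers are not stated to pair the animals. Same-numbered deviations from the group mean correlated at -0.127, 0.016 and 0.050 over genes, and no MCT4KO animal correlated best with its own number. Deviations were taken within each group, so these values cannot settle whether animals were paired. With the animal number as a replicate block, 0 Nduf genes were called, the subunit median was -0.09 and the assembly factor median -0.01, and 6 genes in all were called. Over all genes 115 were called, 16 without WT 1 and WT 2, and 15 to 64 without any 1 animal. Without 1 animal the subunit median was -0.09 to 0.06 and that of the assembly factors -0.18 (without MCT4KO 2) to 0.048. With low values raised to the control median, a setting with no test, Slc16a3 had -7.49. On the values as deposited its change was -8.65, with a range of -8.75 to -8.48 without 1 animal. Estimates changed sign in 9 of 46 genes after quantile normalization and in 6 of 46 without WT 1 and WT 2. Among the 23 genes with values in every animal by the naming rule, these were, after quantile normalization, Ndufs3 (0.041), Ndufaf1 (0.084), Ndufaf6 (-0.037) and Ndufa4 (0.042), and without WT 1 and WT 2 Ndufs3 (0.048), Ndufaf1 (0.064), Ndufaf6 (-0.046) and Ndufa4 (0.0405). Without 1 animal the range crossed 0 in 20 of 46 genes, 8 of them among those 23, at -0.058 to 0.022 for Ndufs3, -0.38 to 0.085 for Ndufs7, -0.12 to 0.21 for Ndufs8, -0.18 to 0.059 for Ndufa4, -0.072 to 0.058 for Ndufaf1, -0.19 to 0.31 for Ndufaf5, -0.19 to 0.13 for Ndufaf6 and -0.021 to 0.11 for Ndufaf8. The cause was not tested. Among the 46, Ndufaf6 alone had values at or below the control median, and Ndufaf5 came close to it in MCT4KO 1 and WT 3.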
